A study of Mus musculus with 49 samples.

Results

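Mice that carried only the tTA driver transgene were compared with transgene-free littermates in 2 subfields of the hippocampus, the dentate gyrus (DG) and CA3, and the size of the genotype difference was compared between the subfields. For each of the 22626 probe sets that are not array controls, the tTA minus DN difference in CA3 was subtracted from the tTA minus DN difference in DG. A negative value therefore means that the transcript was lower in tTA relative to DN mice by more in DG than in CA3, or rose only in CA3, and a positive value means the opposite. This used 21 of the 49 arrays of the series: 6 of DN DG, 5 of DN CA3, 5 of tTA DG and 5 of tTA CA3, from 6 DN and 5 tTA mice. Both subfields were profiled in 10 of these 11 mice, and the mouse number at the end of each title was used as a block in the model.

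All mice were females of 6.1 months. The tTA mice carry a transactivator that tetracyclines switch off (tTA), driven by the Camk2a promoter, which is active mainly in excitatory neurons of the forebrain, and they carry no responder gene. The double-negative (DN) mice carry neither the driver nor the responder. Both came from the cross that also gives rTg4510 mice, between FVB/N mice with a responder gene for mutant human tau and driver mice of another inbred strain. Granule cell and CA3 pyramidal cell layers had been cut out by laser capture microdissection, which takes chosen cells from a tissue section, and the RNA of each capture was amplified and put on 1 Affymetrix HT-MG-430A array. Values are on the log2 scale, so that a difference of 1 is a 2-fold difference.

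Granule cells of the dentate gyrus receive the main cortical input to the hippocampus and send their axons, the mossy fibers, to the pyramidal cells of CA3. They express the transcription factor Prox1, which keeps their identity, and they store the opioid peptides enkephalin and dynorphin in mossy fiber terminals. tTA is a bacterial repressor fused to a viral activator, and it switches on a responder placed behind tet operator sequences.

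The captured layers held the transcripts that mark them. In DN mice Prox1 was at 7.98 ± 0.35 in DG (SD, n = 6) and 3.07 ± 0.58 in CA3 (n = 5), and Rspo2, a secreted Wnt agonist of CA3 pyramidal cells, was 3.47 lower in DG than in CA3. The tTA arrays of 1 group were more variable than the DN arrays, with a median SD over probe sets of 0.23 in DG and 0.214 in CA3 against 0.171 and 0.149. Actin probes at the 3-prime end relative to the 5-prime end, a sign of RNA quality, gave group means of −0.299 in DN DG, −0.453 in DN CA3, −0.609 in tTA DG and −0.636 in tTA CA3. The DG minus CA3 difference of that measure differed by −0.101 between tTA and DN mice (p = 0.349 by a two-sided exact permutation test over 10 mice). The DN mice have numbers that lie apart from those of the tTA mice, and no processing date or batch is given in the sources used here, so a batch and the genotype cannot be told apart.

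The tTA response differed between DG and CA3 for 359 of the 22626 probe sets, 1.59% of those tested, at an adjusted p below 0.05 (limma, Benjamini-Hochberg over all probe sets). It was lower in DG for 183 (0.809%) and higher in DG for 176 (0.778%), and 180 of the 359 differed by at least 2-fold. At an unadjusted p below 0.05 there were 2578 probe sets. The 359 became 232 without the mouse as block and between 192, without DN mouse4797, and 379 with 1 mouse left out. Within the subfields, 4432 probe sets (19.6%) were called for tTA against DN in DG, 1998 (8.83%) higher and 2434 (10.8%) lower, and 2390 (10.6%) in CA3, 1037 (4.58%) higher and 1353 (5.98%) lower. The 359 probe sets covered 255 named genes, 137 lower and 118 higher, while 63 probe sets have no single gene symbol.

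The probe sets with a lower response in DG were mostly ones that fell in DG. Of the 183, 137 were called only in DG, where every one was lower in tTA mice, and 11 more were called to fall in DG and to rise in CA3. A further 9 were called to fall in both, 23 were called only in CA3, where every one was higher in tTA mice, and 3 in neither. The 176 with a higher response were divided between rises in DG and falls in CA3: 98 were called only in DG, where all rose, 53 only in CA3, where all fell, 13 rose in DG and fell in CA3, 6 were called in the same direction in both and 6 in neither. A dim transcript has little room to fall on an array. Of the 157 lower probe sets called to fall in DG, 79 had a DN CA3 mean below 5.034, the median over all probe sets, and of the 67 higher ones called to fall in CA3, 30 had a DN DG mean below it. All 4 group means were at or above that level in 208 of the 359, 93 lower and 115 higher.

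**Figure D1:**
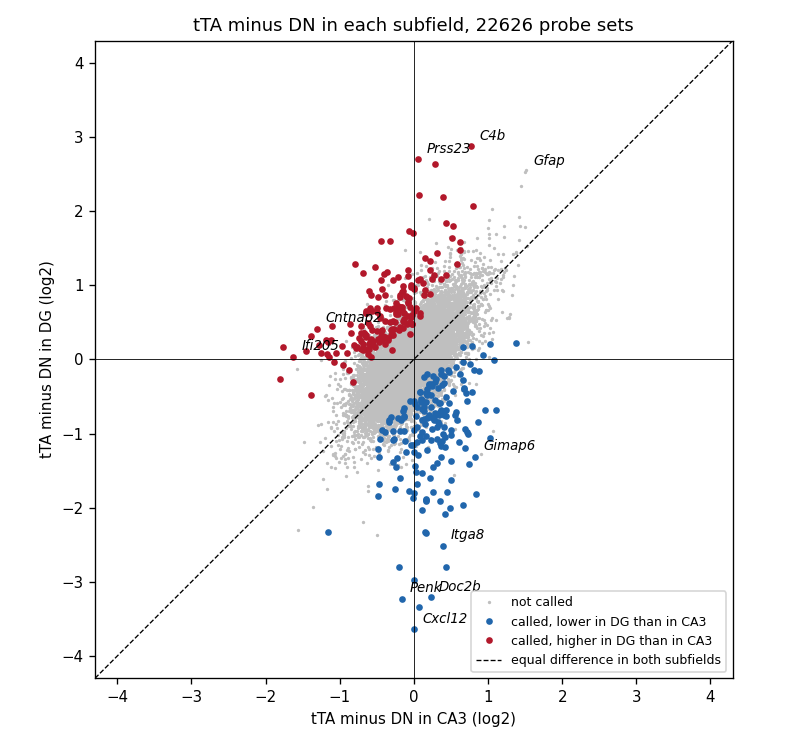
tTA minus DN difference in CA3 (x axis, log2) and in DG (y axis, log2) for each of 22626 probe sets, with the 183 called lower in DG in blue, the 176 called higher in red and the rest in gray. The dashed line marks equal differences in both subfields, and the blue points spread furthest below it along the vertical axis, down to Cxcl12 at −3.64 in DG and 0.01 in CA3.

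The 15 named genes with the largest lower values were all called to fall in DG, and in all 15 the tTA and DN arrays of DG did not overlap (10.3% of all probe sets had no overlap there). Gimap6 was called to rise in CA3, and the other 14 were not called in CA3. Of the 15, only Rprm and Car12 had DN CA3 means above the median probe set of 5.034, at 5.48 and 5.28. The others were dimmer there, such as Ogn at 2.56 and Doc2b at 3.09, so a fall in CA3 could hardly be seen. In bulk samples, fewer cells of a type and less RNA per cell cannot be told apart.

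Cxcl12, a chemokine that guides migrating neurons and granule cell precursors, had the largest difference. Its DN DG arrays ran from 8.33 through a median of 8.44 to 8.63, and the tTA DG arrays were at 4.63, 4.69, 4.73, 4.94 and 5.06. The DN CA3 arrays were at 3.52, 3.64, 3.70, 3.85 and 4.28, and the tTA CA3 arrays at 3.12, 3.62, 3.98, 4.13 and 4.16. The genotypes lay far apart in DG and overlapped in CA3. The tTA response was −3.64 in DG (SE 0.16) and 0.01 in CA3 (SE 0.17), a difference of −3.65 (SE 0.22, limma adjusted p = 1.2e-09). A second Cxcl12 probe set gave −0.21 (limma adjusted p = 0.872), with responses of 0.47 in DG and 0.68 in CA3, so the large value belongs to 1 of the 2 probe sets.

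Doc2b, a calcium sensor for vesicle release, fell on both of its probe sets. The DN DG arrays ran from 6.55 through 6.79 to 7.17, and the tTA DG arrays were at 3.45, 3.57, 3.60, 3.65 and 3.82. The CA3 arrays of DN mice were at 2.75, 3.04, 3.16, 3.20 and 3.28, and those of tTA mice at 3.10, 3.17, 3.33, 3.39 and 3.58. In tTA mice the DG level thus came close to that of CA3. The DG minus CA3 difference of single mice fell from 3.46 to 4.13 in DN mice to 0.02 to 0.72 in tTA mice. A two-sided exact permutation test gave p = 0.00794, the smallest that 5 against 5 mice allow. Doc2b was picked for its large difference on these same arrays, so this p adds no support. The difference of responses was −3.44 (SE 0.16, limma adjusted p = 2.08e-11), and −3.41 on the other probe set.

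The opioid peptide precursors of the mossy fibers were lower in the same way. Penk, the precursor of the enkephalins, was at 8.12 to 8.64 in DN DG with a median of 8.43, and at 4.68, 5.04, 5.24, 5.47 and 5.66 in tTA DG. In CA3 it was at 3.70, 3.96, 4.01, 4.34 and 4.78 in DN and 3.66, 3.81, 3.94, 3.96 and 4.56 in tTA mice. Only the DG arrays separated by genotype, and the difference of responses was −3.06 (SE 0.27, limma adjusted p = 6.02e-07). Pdyn, the precursor of the dynorphins, ran from 6.17 through 6.59 to 6.66 in DN DG and was at 4.05, 4.40, 4.72, 4.79 and 4.90 in tTA DG. Its CA3 arrays were at 3.68 to 4.12 in DN and 3.92 to 4.51 in tTA mice, which overlap, and the difference was −2.26 (SE 0.19, limma adjusted p = 4.89e-07).

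Genes for the matrix and cell surface were among the largest. Ogn, a small leucine-rich proteoglycan, was at 5.36 to 6.14 in DN DG, at 2.64, 2.66, 2.68, 2.85 and 2.93 in tTA DG, and between 2.40 and 2.82 in all CA3 arrays of both genotypes. Its 2 probe sets gave −2.98 and −3.24. Lum, a related proteoglycan, gave −1.65, from 4.71 in DN DG to 3.17 in tTA DG, while 3.02 in tTA CA3 lay close to 2.93 in DN CA3. Ogn and Lum are also made by meningeal fibroblasts, and of 13 genes listed for those cells these 2 were called lower and 0 higher, against 0.974% and 0.847% of all genes, with a median of −0.12. Itga8, the alpha 8 integrin, gave −2.91 (SE 0.27, limma adjusted p = 1.27e-06), from 8.44 ± 0.42 in DN DG (SD, n = 6) to 5.92 ± 0.47 in tTA DG (n = 5). Npnt, a matrix ligand of that integrin, gave −2.09 and was called in both subfields, −1.06 in DG and 1.03 in CA3. Of its 4 other probe sets, 2 were also called. The sialyltransferases St3gal1, which caps glycans with sialic acid, and St8sia4, which builds polysialic acid, gave −2.60 and −2.23, and a second St8sia4 probe set gave −0.74 and was not called.

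Other genes of this group have various roles. Rprm, a p53-induced cell cycle inhibitor, went from 9.26 to 9.75 in DN DG to 6.67, 6.68, 6.98, 7.48 and 7.55 in tTA DG, and its difference was −2.51. Rbp4, the carrier of retinol, also gave −2.51, Trpc6, a cation channel of granule cells, gave −2.50, and Car12, a carbonic anhydrase, gave −2.47. Spata13, an exchange factor for small GTPases, gave −2.14, and Gimap6, a GTPase known from lymphocytes, gave −2.14, being the one of the 15 called in both subfields (−1.31 in DG and 0.83 in CA3). Pou3f1, a POU factor best known from CA1, gave −2.63 with an SE of 0.63 (limma adjusted p = 0.0372). Its tTA CA3 arrays were at 3.73, 3.98, 4.31, 4.48 and, in mouse4592, 7.22, and its second probe set gave −0.08. Without the CA3 array of mouse4592, the Pou3f1 value was −2.06.

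**Figure D2:**
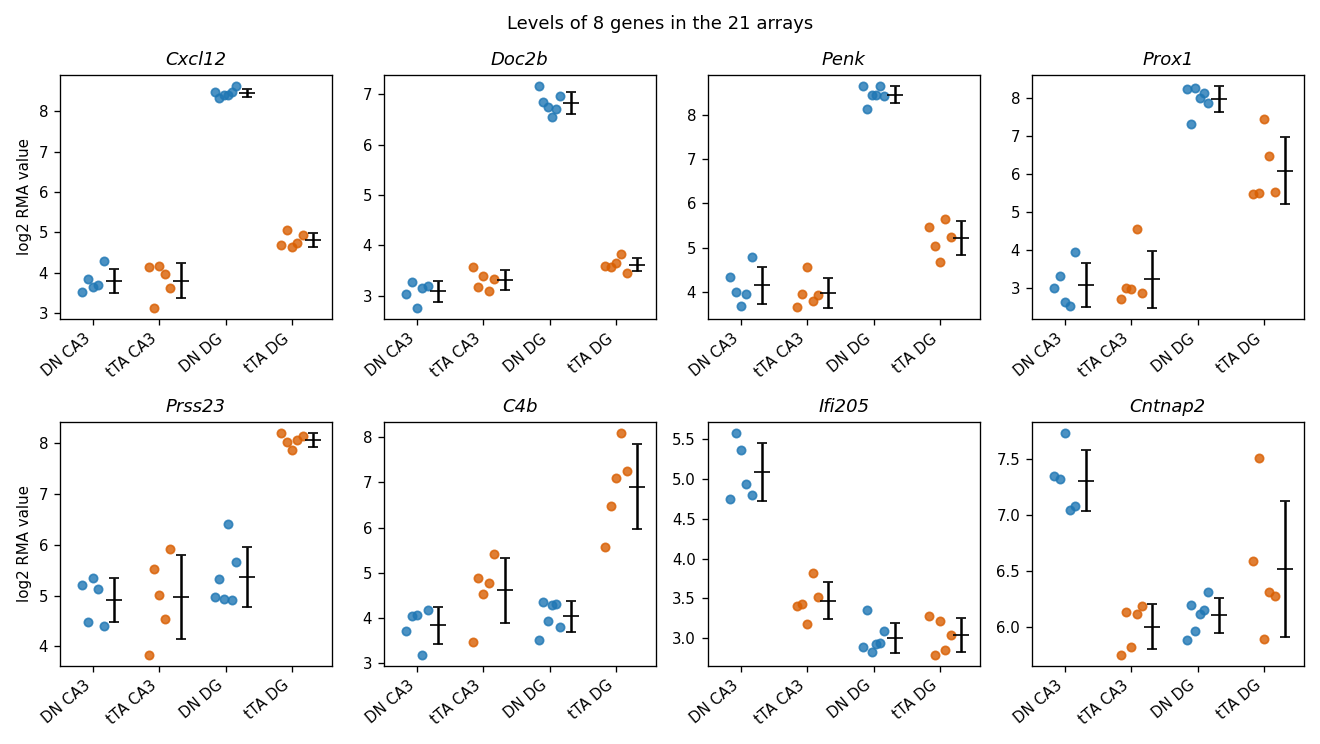
Log2 values of 8 genes in each of the 21 arrays by group (DN in blue, tTA in orange), with the mean and SD of each group as black bars. Cxcl12, Doc2b and Penk are high in DN DG alone, Prox1 keeps a higher level in tTA DG than in CA3, Prss23 and C4b are highest in tTA DG, and Ifi205 and Cntnap2 are highest in DN CA3.

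The marker genes of granule cells moved unequally. Of the 16 measured, 6 were called lower in DG, Trpc6, Npnt, Prox1, Stxbp6, Bcl11b and Slc29a4, and 2 higher, Cdh9 and Tdo2, against 0.974% and 0.847% of all genes. The median difference of responses over the list was −0.72, against −0.01 over all 11807 genes. In DG alone 8 of the 16 fell and 1 rose, against 10.7% and 9.91% of all genes. In CA3 2 fell and 1 rose, against 5.78% and 4.9% of all genes. The mean level of the 16 ran from 7.70 to 8.07 in DN DG and from 7.17 to 7.46 in tTA DG, without overlap, and from 4.95 to 5.52 in DN CA3 and 5.23 to 5.70 in tTA CA3, with overlap. Neurod1, a proneural factor, gave 0.20 and Dsp, desmoplakin, gave −1.16, and neither was called.

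Prox1 ran from 7.33 through 8.08 to 8.26 in DN DG, and it was at 5.46, 5.50, 5.53, 6.48 and, in mouse4592, 7.46 in tTA DG. In CA3 it was at 2.52, 2.62, 2.98, 3.30 and 3.95 in DN and 2.72, 2.85, 2.98, 2.99 and, in mouse4626, 4.56 in tTA mice. The genotypes overlapped in DG through mouse4592 and overlapped throughout in CA3. The difference was −2.05 (SE 0.49, limma adjusted p = 0.0354), called in 8 of 21 alternative settings and between −2.46 and −1.82 in all 21. Of the 11 fits that left out 1 mouse, Prox1 was called in 3, without DN mouse4806 (−2.17), DN mouse4886 (−2.29) or tTA mouse4592 (−2.46). Calb1, the calcium-binding protein calbindin, gave −2.03 (limma adjusted p = 0.149), with tTA DG at 8.95 to 9.57 against 10.15 to 10.43 in DN DG and a wide CA3 spread of 3.32 to 6.78 in DN mice. Its dimmer second probe set was called at −1.53 (limma adjusted p = 0.0213).

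Transcripts for granule cell synapses and secretion changed in both directions. Of 10 measured, Penk, Pdyn, C1ql3 and Scg2 were called lower and Cck higher, against 0.974% and 0.847% of all genes, with a median of −0.48. C1ql3, a secreted synaptic organizer made by mossy fibers, went from 10.72 in DN DG to 8.93 in tTA DG and was at 6.40 and 6.65 in CA3, a difference of −2.06. Cck, the peptide cholecystokinin, rose from 8.10 to 9.47 in DG and was at 10.06 and 10.23 in CA3, a difference of 1.21 (SE 0.15, limma adjusted p = 7.35e-05). Bdnf, a neurotrophin stored in mossy fibers, was lower in DG (−1.26, limma adjusted p = 0.0015), while its difference of responses, −0.78, was not called (limma adjusted p = 0.37).

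Scg2 encodes secretogranin II, a precursor protein of dense-core vesicles. It went from 9.36 in DN DG to 7.59 in tTA DG and was at 7.31 and 7.25 in CA3, a difference of −1.71 (SE 0.15, limma adjusted p = 4.96e-07). Among the named genes searched, only Scg2 had the palindromic cAMP response element TGACGTCA in the 250 bases before a listed start site. Its sequence is shown for that reason. The search left out promoters on 1 chromosome, and genes such as Penk and Doc2b have no listed promoter. The 250 bases before the start site (RefSeq, GRCm38.p6, minus strand, chr1:79440027-79440276) are printed 5′ to 3′ with the element in capitals.
Scg2 promoter: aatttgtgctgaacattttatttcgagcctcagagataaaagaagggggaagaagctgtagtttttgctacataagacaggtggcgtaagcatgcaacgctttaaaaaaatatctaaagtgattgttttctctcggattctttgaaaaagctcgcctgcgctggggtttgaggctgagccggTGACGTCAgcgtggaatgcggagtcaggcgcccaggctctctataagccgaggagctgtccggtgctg
The element begins 68 bases before the start site. Searched on both strands, it lay in 4 of 148 promoter windows (2.7%) of the genes called lower, of which 105 of 137 had an entry, in 2 of 137 windows (1.46%) of those called higher, of which 88 of 118 had one, and in 2.46% of the windows of all measured genes. The AP-1 motif TGANTCA was in 6.08%, 6.57% and 6.67% and the E-box CANNTG in 58.1%, 67.9% and 66.9%. The shares of called genes lie near the background for the first 2 motifs, and a match of letters is no evidence of binding.

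Some activity-regulated and developmental genes were lower in DG as well. Ptgs2, the inducible cyclooxygenase, fell in both subfields, by 1.84 in DG and by 0.49 in CA3, a difference of −1.35 (limma adjusted p = 1.23e-05). In DN mice it was already lower in DG, at 7.53, than in CA3, at 8.49. Jun, an AP-1 subunit, went from 10.54 to 9.82 in DG and from 7.59 to 7.87 in CA3 and was called (limma adjusted p = 3.61e-05). A second Jun probe set gave −0.83 and was not called. Of 31 immediate early genes measured, Ptgs2 and Jun were called lower and Nr4a3 (0.96) and Dusp6 (1.05) higher. The shares of all genes called were 0.974% and 0.847%, and the median of the list was 0.00. Dusp6 was called in only 6 of 21 alternative settings, in 2 of 11 fits with 1 mouse left out and not with the mouse as a fixed block, and its per-mouse differences overlapped between genotypes. Arc gave 0.48 and was not called. Among neuronal transcription factors, Bcl11b, also called Ctip2, gave −1.39 and Bcl6 gave −1.28 (not called without DN mouse4797, at −1.192, or mouse4866, at −1.225), while Sox11, a factor of young neurons, gave −1.21. A second Bcl6 probe set gave −0.86 and was not called. Tbr1, a T-box factor of glutamatergic neurons, was at 8.95 in DN DG and 10.15 in tTA DG against 9.16 and 9.08 in CA3, a difference of 1.28.

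Genes with a higher response in DG fell into those that rose in DG and those that fell in CA3. Of the 15 largest, 8 were called to rise in DG and not called in CA3, and the other 7 were called to fall in CA3 and not called in DG. Of these 7, only Cntnap2 and Qrsl1 had DN DG means above the median probe set of 5.034, at 6.10 and 6.53. A fall of the others in DG could hardly be seen. Prss23, a secreted serine protease, belonged to the first kind. Its tTA DG arrays were at 7.87, 8.02, 8.08, 8.16 and 8.21, against 4.91 to 6.42 in DN DG, with a median of 5.14. In CA3 the DN arrays were at 4.40 to 5.35 and the tTA arrays at 3.83 to 5.93. The genotypes were apart in DG and overlapped in CA3, and the difference was 2.64 (SE 0.42, limma adjusted p = 0.0012), with 2.36 on the second probe set.

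C4b, a complement component made by glia, was at 5.57, 6.48, 7.10, 7.25 and 8.10 in tTA DG and at 3.50 to 4.36 in DN DG. Its tTA CA3 arrays were at 3.46, 4.53, 4.77, 4.89 and 5.41 and its DN CA3 arrays at 3.17, 3.71, 4.04, 4.07 and 4.17. The DG arrays were apart, 1 tTA CA3 array lay within the DN range, and the difference was 2.10 (SE 0.47, limma adjusted p = 0.0211), called in 13 of 21 alternative settings. C1qa, a chain of the complement starter C1q, was called to rise in both subfields, by 2.07 in DG and by 0.80 in CA3, a difference of 1.27. Cd24a, a surface glycoprotein of young neurons and immune cells, gave 1.80 and Blnk, an adaptor of immune receptors, gave 1.72, and both were called in DG and not in CA3. A second Cd24a probe set gave 0.79 and was not called. Xlr, a lymphocyte gene of the X chromosome, gave 1.40 and Klhdc8a, a kelch protein, gave 1.51. H2-K1, a class I antigen of the major histocompatibility complex, gave 1.27 on 1 of 4 probe sets, and the other 3 were not called, at 0.08 to 0.27.

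Dkk3, a secreted glycoprotein of the Dickkopf family that is abundant in pyramidal cells, and Tle3, a corepressor, had higher levels in CA3 than in DG of DN mice and rose in DG. Dkk3 was at 7.96 to 9.05 in DN DG and 9.21, 9.31, 9.38, 9.69 and 10.08 in tTA DG, without overlap, and at 11.42 ± 0.11 in DN CA3 and 11.07 ± 0.32 in tTA CA3 (SD, n = 5 each). The difference was 1.55 (SE 0.24, limma adjusted p = 0.000913). Tle3 gave 1.53, and its other probe sets, at 0.62 and 0.08, were not called.

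The falls in CA3 included interferon-inducible and adhesion genes. Ifi205 was at 4.75, 4.80, 4.94, 5.37 and 5.58 in DN CA3 and at 3.18, 3.41, 3.43, 3.52 and 3.82 in tTA CA3, and DG ran from 2.79 to 3.35 in both genotypes. The difference was 1.66 (SE 0.21, limma adjusted p = 7.13e-05), and Ifi203 gave 1.92 in the same manner. The 2 genes are neighbors of 1 family with similar sequences, and their probe sets may not tell the members apart. Cntnap2, a cell adhesion protein that clusters potassium channels, was at 7.05, 7.08, 7.32, 7.34 and 7.73 in DN CA3 and 5.75, 5.82, 6.12, 6.14 and 6.19 in tTA CA3. These did not overlap (10.2% of all probe sets had no overlap in CA3), and the DG arrays did, at 5.88 to 6.31 and 5.89 to 7.51. Its difference was 1.72 (SE 0.27, limma adjusted p = 0.00091), and the second probe set gave 0.61 (limma adjusted p = 0.0639).

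Shisa2, which lowers Wnt and FGF receptors at the surface, gave 1.69, Rem2, a GTPase that restrains calcium channels, 1.55, Cd109, a surface protein that binds TGF-beta receptors, 1.48, and Qrsl1, a subunit of the mitochondrial amidotransferase, 1.44. In each the CA3 level fell, by 1.38, 1.10, 1.28 and 1.18. A second Qrsl1 probe set gave 0.63 and was not called. Rspo2, the one called marker among 8 of CA3 pyramidal cells, fell by 1.12 in CA3, from 7.45 to 6.34, while its response in DG was 0.26, a difference of 1.38. The 8 CA3 markers had a median of 0.31.

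**Figure D3:**
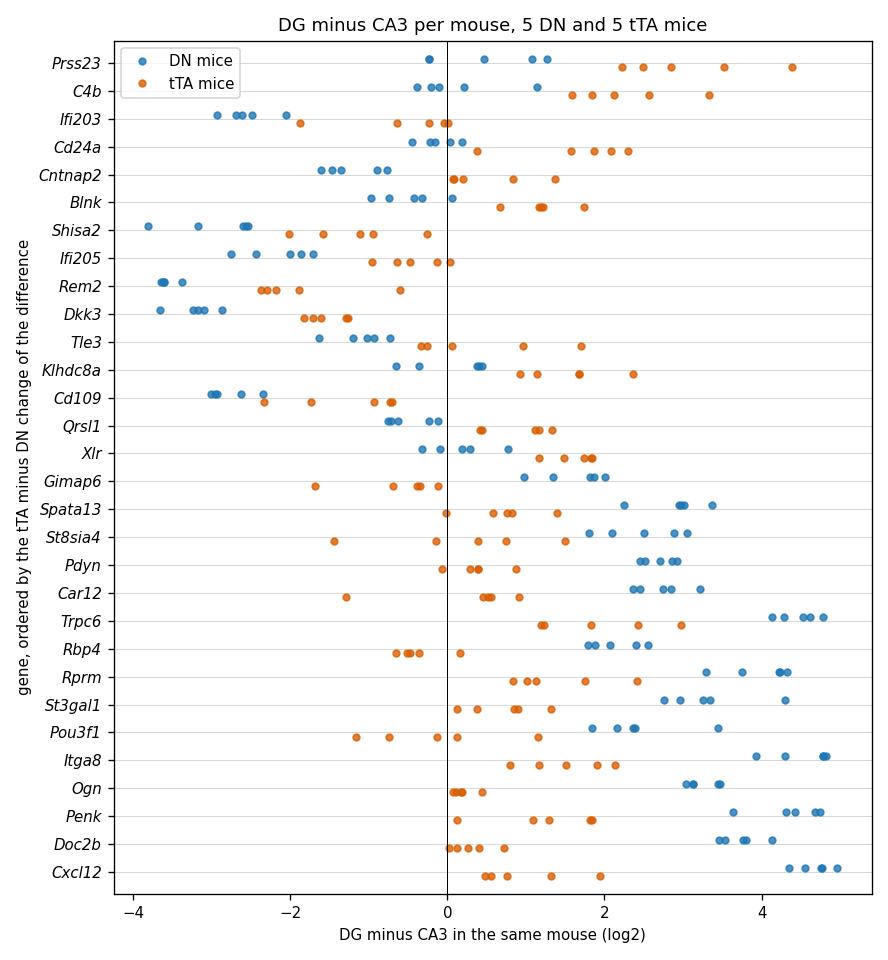
DG minus CA3 difference (log2) within each of the 10 mice that have both arrays, for the 30 named genes with the largest values, DN mice in blue and tTA mice in orange. In all 30 genes the 5 tTA mice and the 5 DN mice do not overlap, and in most of them the tTA points lie nearer to 0.

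Over the 10 mice with both arrays, the per-mouse DG minus CA3 differences of the 2 genotypes did not overlap in 301 of the 359 called probe sets, against 3.39% of all probe sets. Since the calls were made on the same arrays, this count describes them and supports nothing further. In 337 of the 359, the difference of responses had the opposite sign to the DG minus CA3 difference of DN mice. This count includes genes that passed 0 and lay further from it in tTA mice. Blnk, for example, had per-mouse means of −0.48 in DN and 1.20 in tTA mice. The DN difference is subtracted within the difference of responses, so opposite signs are favored by construction. The same count over all probe sets was not made, so the 337 has no background. Of the 183 lower ones, 166 had been called higher in DG than in CA3 of DN mice, as were 10.8% of all probe sets, and of the 176 higher ones, 131 had been called higher in CA3, as were 11.9%. The DN arrays enter both of those comparisons, so a chance error in them moves both.

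Subfield differences taken from rTg4510 mice, which share no array with the 21, sort the genes without that link. Of 50 genes that were at least 2 log2 units higher in DG than in CA3 of rTg4510 mice, 14 were called lower and 2 higher, with a median of −0.77. Of 21 genes that were as much higher in CA3, 4 were called higher and 2 lower, with a median of 0.49. For differences of 1 to 2 log2 units, 21 of 164 DG genes were lower and 4 higher, and 16 of 131 CA3 genes were higher and 0 lower, with medians of −0.37 and 0.33. Among the 9715 genes not called between the subfields of rTg4510 mice, 47 were lower and 44 higher, with a median of −0.01. The rTg4510 mice carry the driver too, so these subfield differences are those left in its presence.

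Glial markers were higher in tTA mice in both subfields. Of 25 microglial genes, 16 rose in DG and 11 in CA3, and of 17 astrocyte genes, 16 rose in DG and 10 in CA3, with 0 falling, against 9.91% of all genes rising in DG and 4.9% in CA3. The mean level of the microglial genes was 4.67 to 5.12 in DN DG and 5.64 to 6.13 in tTA DG, and 4.54 to 4.81 in DN CA3 and 4.94 to 5.56 in tTA CA3. That of the astrocyte genes was 7.88 to 8.52 and 8.94 to 9.37 in DG, and 7.59 to 8.01 and 8.16 to 8.68 in CA3. The genotypes were apart in each of these 4 pairs.

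Few of these genes were called for the difference between the subfields, while the lists as a whole leaned to DG. The microglial median was 0.35 and the astrocyte median 0.27, against −0.01 over all genes. In each list 1 gene was called, C1qa and Ntsr2, a neurotensin receptor of astrocytes (0.87). Of 19 complement genes, C1qa and C4b were called higher, against 0.847% of all genes. Gfap, the filament protein of astrocytes, was at 9.61, 10.19, 10.32, 10.56 and 10.79 in tTA DG against 7.30 to 8.49 in DN DG. In CA3 it was at 8.11, 8.34, 9.05, 9.18 and 9.22 in tTA and 6.88, 7.09, 7.20, 7.54 and 7.59 in DN mice. It rose by 2.53 in DG and by 1.50 in CA3, and the difference of 1.02 (SE 0.33) was not called (limma adjusted p = 0.153). The per-mouse differences did not overlap, as in 3.39% of all probe sets (p = 0.00794 by a two-sided exact permutation test over 10 mice). That p is unadjusted and the smallest that 5 against 5 mice allow, so it adds no support. The part of glial RNA in the levels of C4b, Cd24a and Blnk was not tested.

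**Figure D4:**
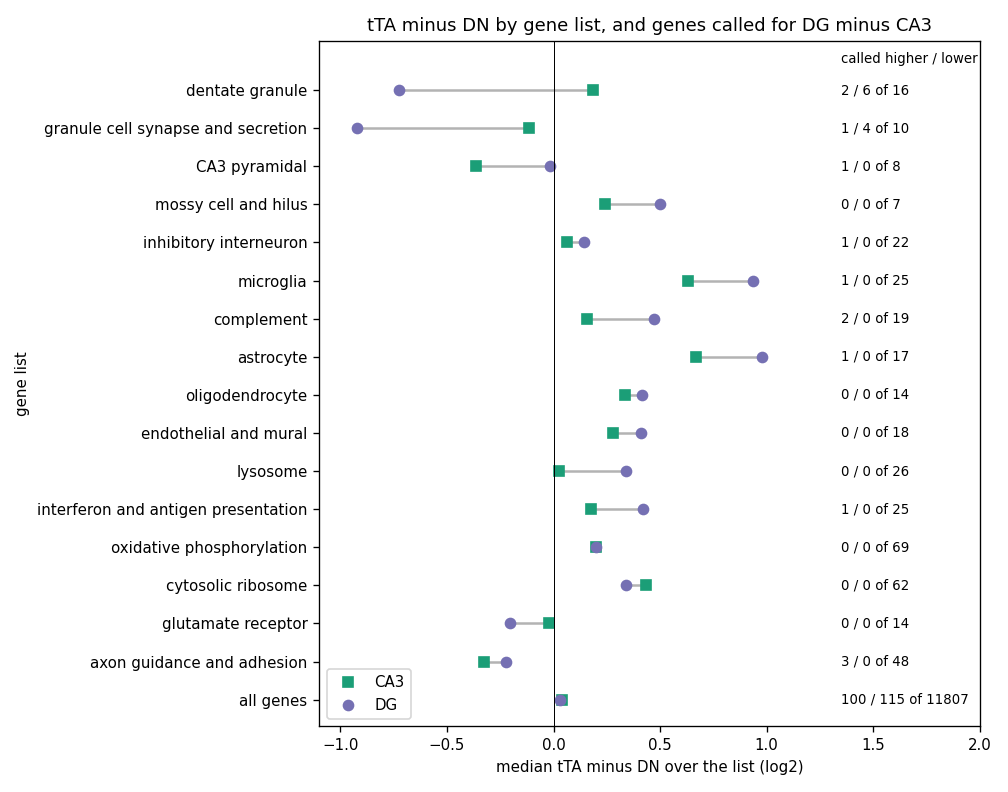
Median tTA minus DN difference (log2) of 16 gene lists and of all genes, in CA3 (squares) and DG (circles), with the numbers of genes called higher and lower for DG minus CA3 at the right. The granule cell lists lie at −0.72 and −0.92 in DG, and the microglial and astrocyte lists are above 0.6 in both subfields.

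Other groups showed large counts in each subfield and few or no calls for the difference. Only 0.847% of all genes were called higher and 0.974% lower for the difference, so 0 calls in a list say little about it. Of 62 cytosolic ribosome genes, 40 rose in DG and 46 in CA3, against 9.91% and 4.9% of all genes. For the difference 0 were called, with a median of −0.14. Of 69 oxidative phosphorylation genes, 28 rose in DG and 19 in CA3, against the same shares. Here too 0 were called for the difference, with a median of 0.00. Of 48 axon guidance and adhesion genes, 15 fell in DG and 18 in CA3, against 10.7% and 5.78% of all genes, and Cdh9 (0.89), Robo1 (0.88) and Cdh10 (0.76) were called higher (0.847% of all genes were), each with its fall in CA3. Cdh10 was called in only 6 of 21 alternative settings and 3 of 11 fits with 1 mouse left out, and Robo1 in 9 and 4 and not with the mouse as a fixed block, while Cdh9 was called in 20. Of 14 glutamate receptor genes, 6 fell and 2 rose in DG, against 10.7% and 9.91% of all genes. In CA3 4 fell and 0 rose, against 5.78% and 4.9%, and 0 were called for the difference.

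Of 35 potassium channel genes, 4 were called higher and 0 lower, against 0.847% and 0.974% of all genes. Kcnq5, of the M-current family, gave 1.22 and was called to rise by 0.66 in DG and to fall in CA3, where it decreased by 0.56. Kcnk2 gave 1.07, Kcnn2 gave 0.86 and Kcnk4 gave 0.82, and these 3 were not called with the mouse as a fixed block. Kcnk4 was called in only 6 of 20 alternative settings and 2 of 11 fits with 1 mouse left out. Its second probe set gave 0.38 and was not called. Among 28 enzymes of voltage and calcium signaling, 4 were called higher and 2 lower. Prkca, protein kinase C alpha, gave 1.20 and Camk4, a calmodulin-dependent kinase, gave 0.92, while Rgs14, a G protein regulator, gave −0.67 and was called in only 6 of 20 alternative settings, not without the block, with a fixed block or in the fit of 49 arrays. Fgfr1, a fibroblast growth factor receptor, rose by 0.84 in DG and gave 1.33. Igfbp5, which binds insulin-like growth factors, gave −1.79 and was called to rise in CA3.

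The genes linked to the transgenes were not called for the difference. Camk2a, whose promoter drives tTA, was at 11.53 ± 0.26 in DN DG and 11.85 ± 0.13 in tTA DG, and at 11.59 ± 0.19 and 11.89 ± 0.09 in CA3 (SD, n = 6, 5, 5 and 5). Its response was 0.32 in DG and 0.30 in CA3, a difference of 0.02 (SE 0.15, limma adjusted p = 0.984). Mapt, mouse tau, gave 0.25 (limma adjusted p = 0.733). Vipr2 and Ncapg2, genes near the site where the driver is inserted, gave −0.05 and 0.50, and Fgf14, at the insertion site of the responder, gave −0.04, with falls of 0.50 and 0.46 in the 2 subfields. Tac2, a tachykinin precursor, gave 0.44.

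Levels in the other arrays were set beside these values for the leading genes. Cxcl12 in DG of rTg4510 mice, which carry the driver and the tau responder, was at 4.03 to 5.46, Doc2b at 2.96 to 3.44, Penk at 4.63 to 6.37 and Ogn at 2.62 to 3.43, all below the DN DG arrays. Prss23 was at 7.69 to 9.04 and C4b at 5.70 to 8.13 there, above the DN DG arrays. In CA1, tTA minus DN was −2.38 for Doc2b, −2.11 for Penk, −2.05 for C1ql3, −0.52 for Cxcl12 and −0.06 for Ogn, of which the first 3 passed an adjusted p of 0.05 in a limma fit of all 49 arrays. Prss23 rose by 2.56 in CA1 and passed as well, and C4b, at 0.66, did not. In CA1 of DN mice, Cxcl12 was at 4.48 and Ogn at 2.90, so these 2 had little room to fall there. Doc2b, Penk and C1ql3 were at 7.48, 8.57 and 9.08 in those mice. Of the 15 largest lower genes, 4 were called lower in CA1 and 0 higher. Of the 15 largest higher ones, 3 were called higher there and 2 lower. The share of all genes called in CA1 was not counted, so these counts have no background. These comparisons share DN mice with the main one.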

How the data were processed

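RNA of laser-captured hippocampal cell layers was measured on Affymetrix HT-MG-430A arrays, 1 array per mouse and subfield. The authors deposited log2 expression values made with RMA (named in the submitters' processing notes), which subtracts background, quantile normalizes the arrays and summarizes each probe set as 1 value. A change common to all transcripts is therefore invisible, and folds of dim probe sets come out too small. The sources used here do not say which arrays were normalized as 1 set. The values, from 1.944 to 13.826, were used as deposited. An array has no read depth, so precision rests on the number of arrays.

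Of 22716 probe sets, 90 controls were left out. The platform table gave 18003 of the rest 1 symbol, 287 several and 4336 no entry. A linear model of the 4 groups was fitted to the 21 arrays (limma 3.58.1, R 4.3.3), with the mouse as random block (consensus correlation 0.131) and Benjamini-Hochberg adjustment over 22626 probe sets. The number in a title names the animal, so it pairs the arrays: deviations from the group mean of the 2 arrays of a mouse had a median correlation of 0.121 (0.0264 to 0.323, above 0.1 in 6 of 10 mice), against −0.0104 for different mice. No 2 arrays of a group held identical values. The model was tested on simulated data that had equal spread in the 4 groups. The larger spread of the tTA arrays was not part of that test.

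Gene lists were described by counts and medians, with the brightest probe set of each gene, and no set test was run. Named genes were the 15 with the largest value in each direction among called probe sets with 1 symbol and a group mean of at least 5.034, up to 4 called members of each list, and 12 genes that were always given. The members and lists were chosen with earlier results of these data known. RefSeq promoter windows (GRCm38.p6) reach from 250 bases before to 50 after a start site. The alternatives were the block, other arrays in the fit, each mouse left out, array weights, repeated quantile normalization, a filter on dim probe sets, the actin ratio as covariate, other variance settings and the study's unmoderated model on log2 and anti-log values.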

Additional observations from a re-analysis of the deposited data

Results flagged for a closer look

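The tTA minus DN difference itself differed between DG and CA3 for 359 probe sets. Among the named genes, 4 were called in opposite directions in the 2 subfields, with differences of responses of −2.14 for Gimap6, −2.09 for Npnt, 1.22 for Kcnq5 and 0.96 for Nr4a3.

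Single arrays stood apart from the rest of their group for some genes. Over the 30 genes with the largest values and the genes always given, 164 pairs of gene and group were looked at, and 13 had such an array. About 1 in 20 pairs, 8.2 here, would do so by chance. The CA3 array of mouse4592 was high for Pou3f1, at 7.219 against 3.733 to 4.48 in the other tTA CA3 arrays, and low for Rem2, at 5.06 against 6.218 to 6.556, and its DG array was low for Blnk, at 5.937 against 6.942 to 7.276. The CA3 array of mouse4626 was high for Prox1, at 4.563 against 2.717 to 2.992, and low for Rprm, at 5.139 against 5.669 to 5.848, and its DG array was high for St8sia4, at 6.254 against 4.818 to 5.225.

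In mouse4886 (DN), Camk2a was low in DG at 11.04 and Fgf14 was low in CA3 at 9.05. The remaining arrays gave 1 gene each: St8sia4 at 6.639 in CA3 of mouse4637, Gimap6 at 3.489 in DG of mouse4580, Rem2 at 4.701 in DG of mouse4806, Cd109 at 2.924 in DG of mouse4883 and Mapt at 5.775 in DG of mouse4866.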

How the results depend on the processing

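The count of 359 probe sets was 232 with no replicate block, 273 with the mouse as a fixed block, 281 in a fit of all 49 arrays, 181 with the study's unmoderated model (349 if run on anti-log values), and 301 without the CA3 array of mouse4592 (chosen after seeing the data). Leaving out 1 mouse gave 192 (without DN mouse4797) to 379, with 219 without DN mouse4883 and 227 without DN mouse4866, and 1219 to 2869 for tTA against DN in CA3, where the lowest were 1219 without mouse4866, 1454 without mouse4797, 1478 without mouse4825 and 1562 without mouse4883. The count in DG was 2698 with the actin ratio as covariate. The causes were not tested. The granule cell markers called lower numbered 5 to 7 under every alternative.

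Of the 15 largest lower genes, 14 were called in all 21 alternatives on the log2 scale and Pou3f1 in 9, of the 11 fits with 1 mouse left out only without tTA mouse4580 (−2.96), mouse4592 (−2.38) or mouse4637 (−2.70). Of the 15 higher ones 7 were. With 1 mouse left out, C4b was not called without DN mouse4797, mouse4825, mouse4866 or mouse4886 or tTA mouse4592 or mouse4626 (1.84 to 2.10), Blnk without DN mouse4825 or mouse4883 or tTA mouse4626 (1.58 to 1.65), Cd24a without DN mouse4883 or mouse4886 (1.73 and 1.79), Klhdc8a in 7 of the 11 and Xlr in 6. No called gene changed direction. Signs turned for 3 genes that were never called: Vipr2 (−0.1639 to 0.1352 with 1 mouse left out, 0.1315 with array weights, 0.146 without the CA3 array of mouse4592), Camk2a (−0.02233 to 0.05317, −0.02323 after quantile normalization, −0.02849 with the actin ratio and −8.033 on the anti-log scale) and Fgf14 (−0.1101 to 0.04229). With 5 or 6 mice a group, the p-values measure the spread among these mice only.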
